A study of Mus musculus with 94 samples.

Results

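Nascent RNA and poly(A) RNA were compared gene by gene in untreated, differentiating mouse embryonic stem cells at day 7. The comparison took 5 of the 94 samples of the series: 2 PRO-seq libraries and 3 poly(A) RNA libraries. PRO-seq (precision run-on sequencing) reads RNA that is still held by an elongating polymerase, whereas poly(A) RNA-seq reads finished, polyadenylated transcripts. Genes were matched between the 2 deposited tables by their symbol, which gave 22183 genes, and 15937 of these had enough counts to be tested.

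All 5 libraries came from CAST/Ei x 129/Sv/Jae hybrid cells that were grown on irradiated feeder fibroblasts and differentiated as embryoid bodies, in suspension at first and later on gelatin. The nascent libraries came from clones C4 and G9, in which the cohesin subunit RAD21 carries an FKBP degron tag, and which received the solvent DMSO for 8 h. The poly(A) libraries came from clone H7 (replicates 1 and 2) and clone H2, in which the cohesin release factor WAPL carries the degron tag, and which received DMSO for 3 days. Only the labels of clone H7 add that it is a Tsix-stop line. Assay, tagged gene, clone and length of DMSO exposure therefore changed together and cannot be told apart. The labels do not say that replicates 1 and 2 of clone H7 came from separate cultures. The other libraries each came from a clone of their own. The spread that the p-values rest on therefore mixes clone differences with differences that may be technical.

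The amount of a finished transcript depends on how fast it is made and on how long it lasts, while a nascent signal depends on polymerases along the gene. A poly(A) library also leaves out transcripts that end without a poly(A) tail, of which the replication-dependent histone mRNAs, with their stem-loop ends, are the textbook case, along with transcripts of RNA polymerase III. The ratio given here is the log2 of poly(A) over nascent CPM, which are counts scaled to library size. CPM were normalised so that the typical gene lies near 0 (trimmed mean of M values, TMM), so a ratio is relative to other genes and measures no decay rate. Transcript and gene lengths were not used. Levels across genes, their correlations and SDs, and differences in ratio between genes or lists can therefore carry length, which was not tested.

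The replicates lay close together and the assays far apart. Among poly(A) libraries Spearman's rho across genes was 0.987 to 0.996, and between the nascent libraries it was 0.981. Between a nascent and a poly(A) library it was 0.786 to 0.804. These are descriptions across genes, which are not independent replicates, and libraries of 1 assay also share its gene-length weighting. Between 53.9% and 55.6% of genes differed by at least 2-fold between a nascent and a poly(A) library, against 0.483% to 5.03% between libraries of the same assay. Library totals ran from 8413212 to 35388461 counts for poly(A) RNA and from 14269544 to 34335988 for nascent RNA.

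**Figure D1:**
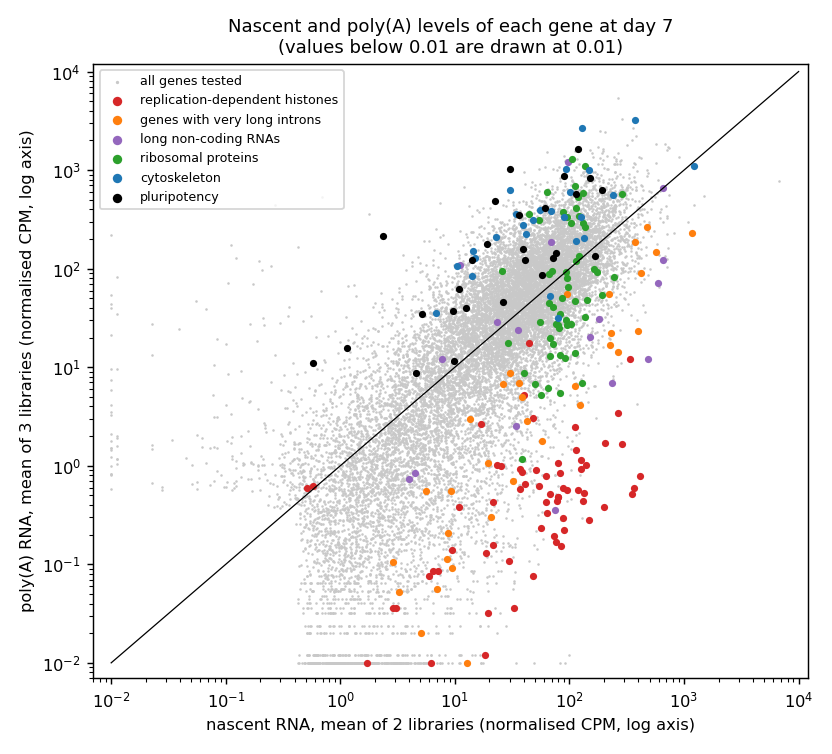
Mean nascent level (x axis, 2 libraries) against mean poly(A) level (y axis, 3 libraries) of the 15937 genes tested, both in normalised CPM on log axes, with 6 gene lists coloured and a line of equal levels. Most replication-dependent histones and genes with very long introns lie below the line, and cytoskeleton and pluripotency genes mostly above it.

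Poly(A) RNA was higher for 3964 genes (24.9%) and lower for 4988 genes (31.3%), by edgeR's quasi-likelihood test with a Benjamini-Hochberg adjusted p under 0.05 and at least a 2-fold difference. The lower and upper quartiles of the ratios were -1.54 and 1.02, with a median of -0.11. The tail was longer on the nascent side: 2137 genes were at least 8-fold lower in poly(A) RNA and 488 at least 8-fold higher. Both the tail and the split take in genes that passed the filter through the counts of 1 assay alone. Of 11224 protein-coding genes with a mean of at least 50 counts in each assay, 3549 were higher and 1799 lower in this fit. The direction split also depends on scaling. With library totals in place of TMM the median moved to -0.72, and 24.5% of the calls were higher in poly(A) RNA, against 44.3%. Of all 15937 genes 2238 were then higher and 6894 lower, the background for every count with library totals below.

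Non-coding entries were mostly lower in poly(A) RNA, although many had enough counts for the test through nascent RNA alone. Of 1019 tested, 894 were lower and 28 higher, with a median of -4.55. Of the 148 with a mean of at least 50 counts in each assay, 84 were lower and 20 higher, with a median of -1.34. The 14748 protein-coding genes split into 3863 higher and 4039 lower, with a median of 0.01. Of the 11224 with a mean of at least 50 counts in each assay, 3549 were higher and 1799 lower in the same fit, with a median of 0.37. Of 2031 non-coding entries in both tables, 593 reached a mean of 1 CPM in nascent RNA only and 7 in poly(A) RNA only.

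Replication-dependent histone genes, which make the core and linker histones of S phase, had the lowest median of the lists. The table lists 68, of which 65 were tested, 63 were lower and 0 higher in poly(A) RNA, with a median ratio of -7.05 (-6.93 when the 2 genes with no poly(A) count are set at the limit of 3 counts over the group). Most entered the test through their nascent counts alone, since 4 had a mean of at least 50 counts in each assay. Those 4 were all lower as well. Across all genes tested, 31.3% were lower. Together the 68 genes held 0.686% and 0.759% of nascent counts and 0.00471% to 0.00869% of poly(A) counts; an exact two-sided permutation test gave p = 0.1, the smallest that 3 against 2 libraries allow (0.1125 after Benjamini-Hochberg adjustment over 9 shares).

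The sequences just before 4 of these genes are shown because the histone genes share promoter elements by class as well as their low ratio. Each is the 150 bases before the RefSeq start, 5′ to 3′ (RefSeq, GRCm38.p6, a newer build than the mm9 of the submitters' notes). Capitals mark the CCAAT box (CCAAT), the TATA box (TATAAA), the H1 box (AAACACA) and the H4 site (GGTCCG), each searched on both strands.
Hist1h1b, chr13:21780626-21780775, minus strand: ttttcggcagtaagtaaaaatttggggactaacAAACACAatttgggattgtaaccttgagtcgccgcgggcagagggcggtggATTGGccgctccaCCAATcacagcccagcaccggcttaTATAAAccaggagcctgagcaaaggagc
Hist1h1d, chr13:23554882-23555031, plus strand: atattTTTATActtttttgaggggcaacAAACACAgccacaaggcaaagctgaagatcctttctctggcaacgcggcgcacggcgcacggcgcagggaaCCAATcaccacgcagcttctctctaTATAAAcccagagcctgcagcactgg
Hist1h4c, chr13:23698459-23698608, minus strand: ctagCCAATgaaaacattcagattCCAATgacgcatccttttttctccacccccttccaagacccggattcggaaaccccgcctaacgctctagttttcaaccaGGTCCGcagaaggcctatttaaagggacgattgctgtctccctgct
Hist4h4, chr6:136804432-136804581, minus strand: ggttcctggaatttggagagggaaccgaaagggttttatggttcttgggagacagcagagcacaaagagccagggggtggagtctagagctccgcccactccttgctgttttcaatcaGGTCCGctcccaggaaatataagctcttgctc

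Of the 65 tested histone genes, 58 matched a RefSeq promoter, in 59 windows. The CCAAT box stood in 83.1% of these windows and in 24.5% of all 32851 promoter windows. By class it stood in 100% of H1, H2A and H2B windows and 80% of H3 windows, but in 3 of 11 H4 windows (27.3%). The TATA box stood in 39% of the histone windows and in 7.57% of all windows. The H1 box stood in 5 of 6 linker histone windows (83.3%) and in 3.53% of all windows. The H4 site stood in 8 of 11 H4 windows (72.7%) and in 4.42% of all windows. A match describes the letters only.

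Hist1h1b, a linker histone gene, read 313 and 386 CPM in nascent RNA and 0.538, 0.365 and 0.640 CPM in poly(A) RNA, a ratio of -9.45 (SE 0.21, adjusted p = 6.58e-07). Hist1h1d, another linker histone gene, read 376 and 444 CPM against 0.645, 0.729 and 0.959 CPM, a ratio of -9.14 (SE 0.18). The nascent and poly(A) values did not overlap for either gene; over all genes tested, every poly(A) library lay below every nascent library for 44% and above for 39.2%. Hist1h4c, an H4 gene, read 135 and 162 CPM against 0.287, 0.243 and 0.320 CPM. Hist4h4, also an H4 gene, read 217 and 186 CPM against 0.251, 0.425 and 0.480 CPM. By class, the medians were -7.20 for H1, -5.62 for H2A, -7.30 for H2B, -6.81 for H3 and -7.99 for H4. The 2 tested genes that were not called, Hist1h2ao and Hist1h2ap, were near 0.5 CPM in both assays, and these near-identical copies can share reads.

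Replacement histone genes make mRNAs that can carry a poly(A) tail and are not confined to S phase. They were higher for 4 of 11 and lower for 0, with a median of 0.54, beside 24.9% and 31.3% of all genes. With library totals 2 were higher and 1 lower, beside 2238 higher and 6894 lower of all 15937 genes. In the fit of genes with a mean of at least 50 counts in each assay the median, relative to all genes, was 0.18 in place of 0.65. H2afx, the variant phosphorylated at DNA breaks, read 565, 579 and 805 CPM in poly(A) RNA and 196 and 219 CPM in nascent RNA (1.65, SE 0.19). Cenpa, the centromeric H3, read 155, 155 and 145 CPM against 55.7 and 44.6 CPM (1.59, SE 0.13). In both genes every poly(A) library lay above every nascent library.

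**Figure D2:**
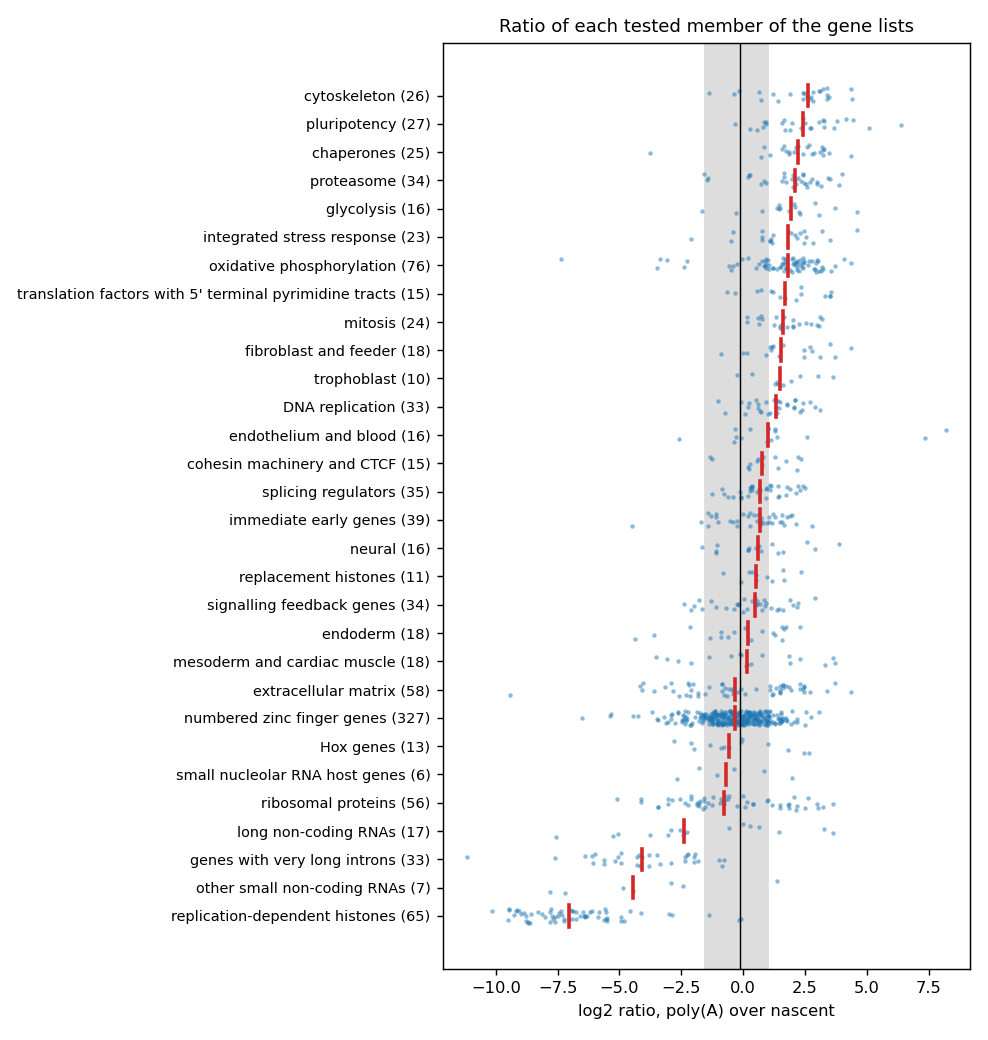
Log2 ratio of poly(A) over nascent RNA (x axis) for each tested member of 30 gene lists (rows, number tested in parentheses), with the list median as a red bar, the median of all genes as a black line and the range between their quartiles in grey. The histone list lies farthest to the left, at a median of -7.05, and cytoskeleton genes lie farthest to the right, at 2.63.

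Short transcripts of other polymerases and processing routes were also low in poly(A) RNA. Bc1, a short neuronal RNA polymerase III transcript, had 0 poly(A) counts in all 3 libraries and read 50.9 and 46.9 CPM in nascent RNA. That is at least 825-fold higher in nascent RNA, taking 3 counts over the poly(A) group as the limit. Its start is shown because a polymerase III gene can carry its promoter inside the transcript: the 50 bases before and the 50 after the RefSeq start, with a match to the polymerase III A box in capitals.
Bc1, chr7:144914420-144914519, plus strand: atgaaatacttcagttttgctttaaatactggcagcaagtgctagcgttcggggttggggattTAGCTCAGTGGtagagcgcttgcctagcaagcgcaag

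Of 7 other small non-coding RNAs tested, 6 were lower and 0 higher, beside 31.3% and 24.9% of all genes. Their median was -4.43, and none had a mean of 50 counts in each assay. Terc, the telomerase template, read 24.1 and 28.7 CPM against 0.215, 0.122 and 0.160 CPM (-7.18, SE 0.32). Rmrp, the RNA of RNase MRP, read 35.7 and 67.4 CPM against 1.29, 0.729 and 7.36 CPM, with clone H2 the high poly(A) library. MicroRNA, small nucleolar RNA and Cajal body RNA entries were not analysed here, because their symbols had no counterpart in the nascent table.

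Long non-coding RNAs were spread over the whole range: 10 of 17 were lower and 3 higher, with a median of -2.40, beside 31.3% and 24.9% of all genes. In the fit of genes with a mean of at least 50 counts in each assay, 6 of 13 were lower and 3 higher, and the median relative to all genes was -0.91 in place of -2.29. Xist, which coats the inactive X, read 896, 1231 and 1465 CPM in poly(A) RNA and 94.3 and 99.5 CPM in nascent RNA (3.63, SE 0.24, adjusted p = 8.00e-06). Tsix, its antisense partner, went the other way, with 35.6, 32.7 and 23.3 CPM against 203 and 160 CPM (-2.55, SE 0.19). The counting strand is not given in the sources used here, so reads of this overlapping pair may not be fully separated, and the Tsix-stop label of clone H7 touches the same locus.

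Airn, the imprinted antisense transcript of Igf2r, read 68.6 and 80.6 CPM in nascent RNA and 0.502, 0.243 and 0.320 CPM in poly(A) RNA (-7.57, SE 0.26). Kcnq1ot1, another imprinted antisense transcript, read 536 and 645 CPM against 70.4, 76.5 and 66.7 CPM (-3.05, SE 0.13). Pvt1, the neighbour of Myc, read 566 and 402 CPM against 13.8, 14.6 and 8.00 CPM (-5.27, SE 0.26). All 3 were lower in every poly(A) library than in either nascent library.

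The 2 nuclear RNAs Malat1 and Neat1 differed from each other. Malat1 read 662, 675 and 641 CPM in poly(A) RNA and 624 and 698 CPM in nascent RNA, so the groups overlapped (ratio 0.00 to 2 decimals, SE 0.12, adjusted p = 0.978). Neat1, the scaffold of paraspeckles, read 140, 126 and 101 CPM against 612 and 705 CPM (-2.43, SE 0.16). Among hosts of small nucleolar RNAs, 3 of 6 were lower and 1 higher, beside 31.3% and 24.9% of all genes. Snhg3 read 23.0, 28.4 and 40.1 CPM against 181 and 207 CPM (-2.69, SE 0.22).

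**Figure D3:**
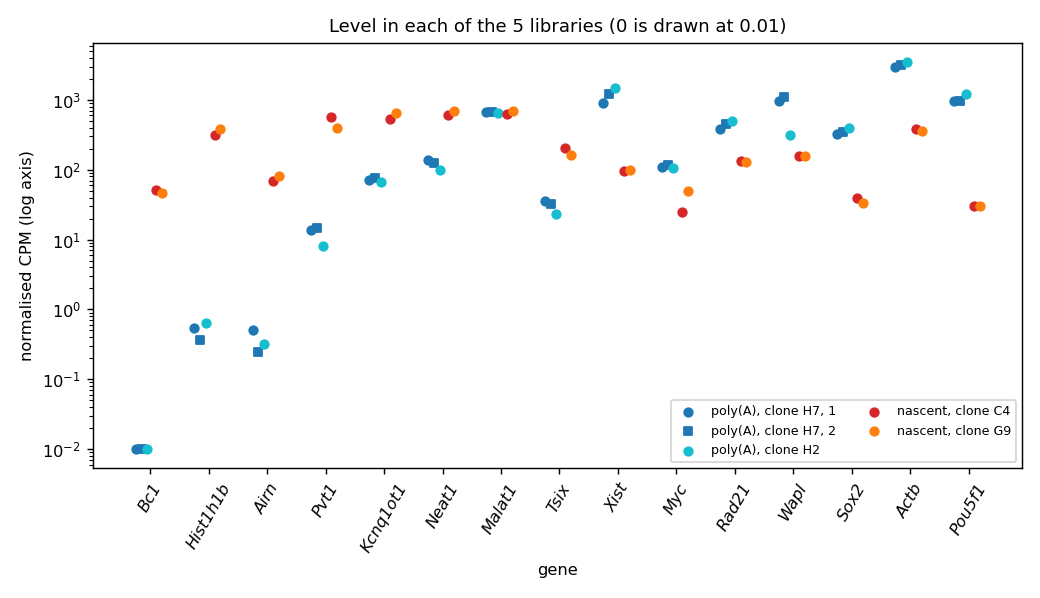
Normalised CPM (log y axis) of 15 genes in each library, with poly(A) libraries in blue and turquoise and nascent libraries in red and orange. Poly(A) points lie below nascent points from Bc1 to Neat1 and for Tsix, together with them for Malat1, and above them from Xist to Pou5f1.

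Genes known for very long introns were low in poly(A) RNA. Of 33 tested, 30 were lower and 0 higher, beside 31.3% and 24.9% of all genes. The median was -4.10, and 18 of these genes had a mean of at least 50 counts in each assay. Wwox, a putative tumour suppressor at a common fragile site, read 238 and 225 CPM in nascent RNA and 24.0, 21.9 and 20.8 CPM in poly(A) RNA (-3.37, SE 0.11, adjusted p = 1.56e-06). Immp2l, a mitochondrial inner membrane peptidase, read 56.3 and 59.8 CPM against 2.12, 1.82 and 1.44 CPM (-4.95, SE 0.19). Ptprt, a receptor phosphatase, read 294 and 494 CPM against 21.5, 24.4 and 23.2 CPM (-4.10, SE 0.22). Dmd, Tenm3 and Foxp1 did not reach the 2-fold threshold; Dmd, which encodes dystrophin, read 105 and 85.9 CPM against 52.9, 60.0 and 53.2 CPM. Whether the nascent counts take in introns is not given in the sources used here.

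Housekeeping groups lay on the poly(A) side. The cytoskeleton list had 21 of 26 higher and 1 lower (median 2.63), chaperones 22 of 25 higher and 1 lower (2.20), and the proteasome 25 of 34 higher and 3 lower (2.11). Glycolysis had 13 of 16 higher and 1 lower (1.95), and oxidative phosphorylation 55 of 76 higher and 6 lower (1.82). Across all genes tested, 24.9% were higher and the median was -0.11.

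Actb, cytoplasmic beta-actin, read 2949.8, 3168 and 3484 CPM in poly(A) RNA and 386 and 357 CPM in nascent RNA (3.11, SE 0.16). Tubb5, a beta-tubulin, read 2234, 2529 and 3200.5 CPM against 126 and 130 CPM (4.37, SE 0.22). Hspa9, the mitochondrial HSP70, read 947, 951 and 948 CPM against 135 and 129 CPM (2.85, SE 0.12). Each gene lay above both nascent libraries in all 3 poly(A) libraries.

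Psmc4, an ATPase of the proteasome base, read 363, 377 and 349 CPM against 31.8 and 32.1 CPM (3.51, SE 0.12). Atp5d, a subunit of ATP synthase, read 229, 226 and 248 CPM against 13.9 and 13.8 CPM (4.08, SE 0.12). Aldoa, aldolase A of glycolysis, read 1268, 1243 and 2103 CPM against 68.1 and 59.4 CPM (4.59, SE 0.30). The members that were lower included genes with many processed copies in the genome. Gapdh, the glycolytic dehydrogenase, read 104, 121 and 56.3 CPM against 339 and 251 CPM (-1.64, SE 0.29), and Ppia, cyclophilin A, read 12.8, 9.97 and 8.63 CPM against 154 and 134 CPM (-3.75). Atp5g2, a c-subunit gene of ATP synthase, read 0.860, 0.425 and 1.12 CPM against 126 and 121 CPM (-7.35). Reads of such genes can be divided among near-identical copies, so these 3 values are uncertain.

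Ribosomal protein genes split. Of 56 tested, 15 were higher and 24 lower, beside 24.9% and 31.3% of all genes, with a median of -0.78. A further 23 were not analysed here because their symbols stood in the poly(A) table only. Nascent means ran from 25.6 to 288 CPM and poly(A) means from 1.18 to 1300 CPM. The SD across genes of the log2 level was 0.67 for nascent and 2.23 for poly(A) RNA, against 2.21 and 2.91 over all genes tested.

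Rps6, a protein of the small subunit, read 11.4, 14.8 and 15.4 CPM in poly(A) RNA and 118.95 and 106 CPM in nascent RNA (-3.04, SE 0.16). Every poly(A) library lay below both nascent libraries. Ribosomal proteins have many processed copies, so reads can be shared, and replicates 1 and 2 of clone H7 also differed for some of them: Rpl35 read 62.6 and 5.65 CPM there. Translation factors whose mRNAs start with a pyrimidine tract, as ribosomal protein mRNAs do, were higher in 11 of 15 and lower in 0 (median 1.70). Eef1a1, the elongation factor that delivers tRNA, read 2596, 2851 and 4530.1 CPM against 291 and 288 CPM (3.52, SE 0.28).

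**Figure D4:**
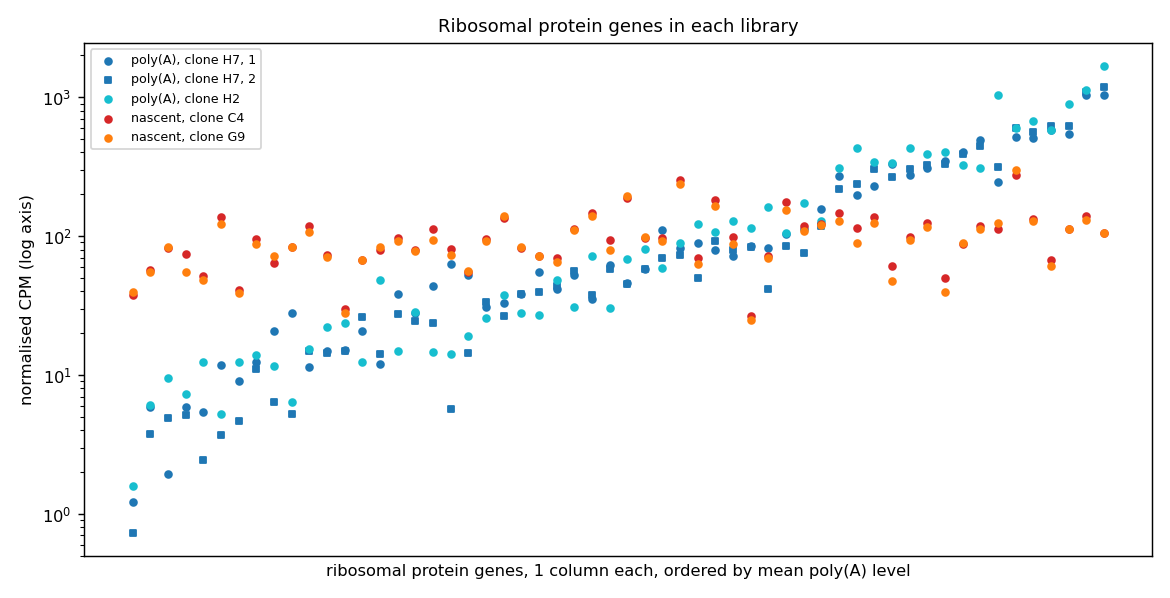
Normalised CPM (log y axis) of the 56 tested ribosomal protein genes in each library, ordered by mean poly(A) level. Nascent points stay in a narrow band while poly(A) means run from 1.18 to 1300 CPM.

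The genes with the 12 highest ratios were mainly intronless copies or members of gene families. Acot10 had 0 nascent counts and read 53.0, 44.3 and 32.9 CPM in poly(A) RNA, at least 901-fold higher by the same limit of 3 counts over the nascent group. Its relative Acot9 read 63.5, 55.6 and 48.8 CPM against 47.4 and 63.7 CPM. Psme2b read 155, 175 and 196 CPM against 0.113 and 0.111 CPM, while Psme2, an activator subunit of the proteasome, read 42.6, 38.4 and 14.1 CPM against 18.5 and 26.8 CPM.

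Several of these copies differed between the poly(A) clones. Prdx6b read 107 and 98.3 CPM in clone H7 and 1.92 CPM in clone H2, and Aldoart2 read 173, 143 and 6.56 CPM. Prdx6, the peroxiredoxin that Prdx6b resembles, read 541, 534 and 531 CPM in the same libraries. Reads of a copy and its source gene can be exchanged, so the ratios of the copies are uncertain, and both Prdx6b and Aldoart2 lost their call with limma-voom.

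Among the lowest ratios, Mia2 read 106 and 93.0 CPM in nascent RNA and had 1 poly(A) count. The poly(A) table carries Ctage5, an alias of the Mia2 row in the nascent table, as a row of its own at 202 ± 18.6 CPM (SD, n = 3), so the Mia2 ratio compares unlike entries. Lncpint, a p53-induced non-coding RNA, read 182 and 77.2 CPM against 0.287, 0.122 and 0.480 CPM (-8.95, SE 0.52). The symbols of 32 genes in both tables had such an alias clash, 24 of them tested.

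Pluripotency genes were higher in poly(A) RNA for 20 of 27 and lower for 0, beside 24.9% and 31.3% of all genes. Their median was 2.43. Pou5f1, the core factor OCT4, read 956, 951 and 1198 CPM in poly(A) RNA and 30.3 and 30.3 CPM in nascent RNA (5.09, SE 0.18, adjusted p = 1.56e-06). Sox2, its partner, read 328, 342 and 392 CPM against 39.4 and 33.2 CPM (3.28, SE 0.15). Utf1, a chromatin factor of undifferentiated cells, read 511, 474 and 477 CPM against 25.2 and 19.8 CPM (4.43, SE 0.16). Zfp42, also called REX1, read 123, 89.6 and 44.8 CPM against 87.5 and 28.2 CPM, and its groups overlapped.

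The nascent clones were not alike in differentiation markers. The 10 defining pluripotency markers summed to 3357 to 3756 CPM in poly(A) RNA and to 598 and 469 CPM in nascent RNA of clones C4 and G9, and all 10 were at or above 1 CPM in both assays. The 9 mesoderm and cardiac markers summed to 288 to 347 CPM in poly(A) RNA, 37.2 CPM in C4 and 165 CPM in G9. T, the mesoderm factor brachyury, accounted for much of this, at 15.2 CPM in C4 and 113 CPM in G9. For bulk RNA, fewer cells of a type and less RNA per cell cannot be told apart.

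Mesoderm genes were higher for 5 of 18 and lower for 5, endoderm genes for 5 and 3 of 18, and neural genes for 5 and 4 of 16. These shares lay near the 24.9% higher and 31.3% lower of all genes. With library totals the counts were 4 and 6, 2 and 6, and 3 and 4, beside 2238 higher and 6894 lower of all 15937 genes. Relative to all genes the 3 medians were then 0.26, 0.32 and 0.72, against 0.25, 0.32 and 0.71 with TMM. The fibroblast and feeder list was higher for 13 of 18 and lower for 0, or 8 and 1 with library totals. Its 8 defining markers summed to 123 to 266 CPM in poly(A) RNA and 23.0 to 28.6 CPM in nascent RNA. Acta2, smooth muscle actin, made up much of the sum, at 156, 172 and 43.5 CPM in poly(A) RNA and 14.6 and 22.3 CPM in nascent RNA. Lum was at 0 in both nascent libraries and in clone H2, and at 0.072 and 0.061 CPM in clone H7. The part of these markers in the results was not tested. Col1a1, the collagen I chain, read 36.5, 33.8 and 18.2 CPM against 1.25 and 1.77 CPM (4.34, SE 0.39). Endothelium and blood genes were higher for 6 of 16 and lower for 1, or 3 and 1 with library totals. Trophoblast genes were higher for 7 of 10 and lower for 0, or 3 and 0 with library totals. The median log2 difference of their nascent levels, clone G9 minus clone C4, was 0.92, beside a median absolute difference of 0.22 over all genes tested. Hox genes passed the count filter for 13 of 36, with 3 higher and 3 lower, or 2 and 7 with library totals. Extracellular matrix genes were higher for 23 of 58 and lower for 19, and with library totals 14 were higher and 28 lower.

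Of the cell-cycle genes, 18 of 24 mitosis genes were higher in poly(A) RNA and 0 lower, and 21 of 33 DNA replication genes were higher and 1 lower, beside 24.9% and 31.3% of all genes. With library totals 12 of each list were higher, with 0 and 2 lower, beside 2238 higher and 6894 lower of all 15937 genes. Plk1, a mitotic kinase, read 411, 411 and 455 CPM against 49.2 and 42.6 CPM (3.21, SE 0.13). Mcm4, a subunit of the replicative helicase, read 533, 533 and 545 CPM against 66.0 and 58.8 CPM (3.10, SE 0.12). In the integrated stress response list, which holds amino acid synthesis enzymes under ATF4, 17 of 23 were higher and 1 lower. Shmt2, the mitochondrial serine hydroxymethyltransferase, read 304, 341 and 372 CPM against 14.9 and 13.1 CPM (4.59, SE 0.16). Ddit3, the stress factor CHOP, was the 1 lower gene, at 7.38, 7.11 and 7.04 CPM against 31.1 and 30.2 CPM (-2.09).

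Immediate early genes, which are induced within minutes and make short-lived mRNAs, were mixed, with a median of 0.67. Of 39 tested, 14 were higher and 7 lower, beside 24.9% and 31.3% of all genes. With library totals 6 were higher and 10 lower, beside 2238 higher and 6894 lower of all 15937 genes. The median of the list relative to all genes was 0.79 with either scaling. Fos read 131, 138 and 160 CPM in poly(A) RNA and 53.0 and 69.2 CPM in nascent RNA (1.23, SE 0.16). Myc read 108.4, 118 and 106 CPM against 24.6 and 50.0 CPM (1.58, SE 0.28). Nr4a2, an orphan nuclear receptor, read 3.33, 2.73 and 2.88 CPM against 49.3 and 85.7 CPM (-4.48, SE 0.27). The median log2 difference of their nascent levels, clone G9 minus clone C4, was 0.46. Over all genes tested the median absolute difference between these libraries was 0.22. Atf3, a stress-induced factor, read 48.9 CPM in C4 and 168 CPM in G9. Without clone G9 the median of the list, relative to all genes, was 1.15 in place of 0.79.

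Feedback inhibitors and targets of signalling pathways were higher for 8 of 34 and lower for 7, beside 24.9% and 31.3% of all genes. With library totals 5 were higher and 8 lower, beside 2238 higher and 6894 lower of all 15937 genes. Smad7, the inhibitor of TGF-beta signalling, read 118, 117 and 111 CPM against 356 and 437 CPM (-1.78, SE 0.12). Spry1, an inhibitor of receptor tyrosine kinase signalling, read 75.2, 94.6 and 92.6 CPM against 22.7 and 24.1 CPM (1.90, SE 0.15). Numbered zinc finger genes were higher for 38 of 327 and lower for 90 (median -0.32). Splicing regulators were higher for 14 of 35 and lower for 1, or 8 and 5 with library totals.

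The cohesin machinery, which the degron tags touch, was higher for 6 of 15 and lower for 2, beside 24.9% and 31.3% of all genes. Rad21, tagged in the nascent clones, read 385, 449 and 492 CPM in poly(A) RNA and 133 and 131 CPM in nascent RNA (1.75, SE 0.14). Wapl, tagged in the poly(A) clones, read 978, 1086 and 313 CPM against 159 and 158 CPM (2.32, SE 0.49), with clone H2 well below clone H7. Ctcf, the insulator factor, read 388, 406 and 453 CPM against 230 and 243 CPM and did not reach 2-fold (0.81, SE 0.12). Smc1a, another cohesin subunit, read 409, 401 and 381 CPM against 87.1 and 83.0 CPM (2.22, SE 0.11).

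The same nascent libraries were also set against poly(A) RNA of day 10, once from the RAD21 clones C4 and G9 themselves and once from WAPL clone H7. These comparisons share the nascent libraries, so their values are given side by side. The histone median relative to all genes was -6.93 at day 7, -7.23 with the RAD21 clones and -7.59 with clone H7 at day 10. The number of members tested differed for some lists, so their values do not rest on the same genes. For very long introns they were -3.98 over 33 genes, -2.78 over 21 and -3.05 over 21, and the day 7 value was -2.71 in the fit of genes with a mean of at least 50 counts in each assay, which kept 18. For mesoderm and cardiac genes they were 0.25, 2.77 and 1.46, each over 18 genes, and the day 7 value was -0.16 without clone C4 and 0.80 without clone G9. For Hox genes they were -0.46 over 13 genes, 1.92 over 23 and 0.96 over 14, and the day 7 value ran from -0.72 to -0.24 when each library was left out. For extracellular matrix genes they were -0.19 over 58 genes, 0.95 over 43 and 1.45 over 40. The day 7 matrix value was 0.97 in the fit of genes with a mean of at least 50 counts in each assay, which kept 31. Wapl was at 0.02 (clone as a block) when both sides came from the RAD21 clones, with 209 and 175 CPM in poly(A) and 188 and 190 CPM in nascent RNA. Pou5f1 was at 3.71 in that comparison, with 502 and 445 CPM against 35.8 and 36.3 CPM.

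**Figure D5:**
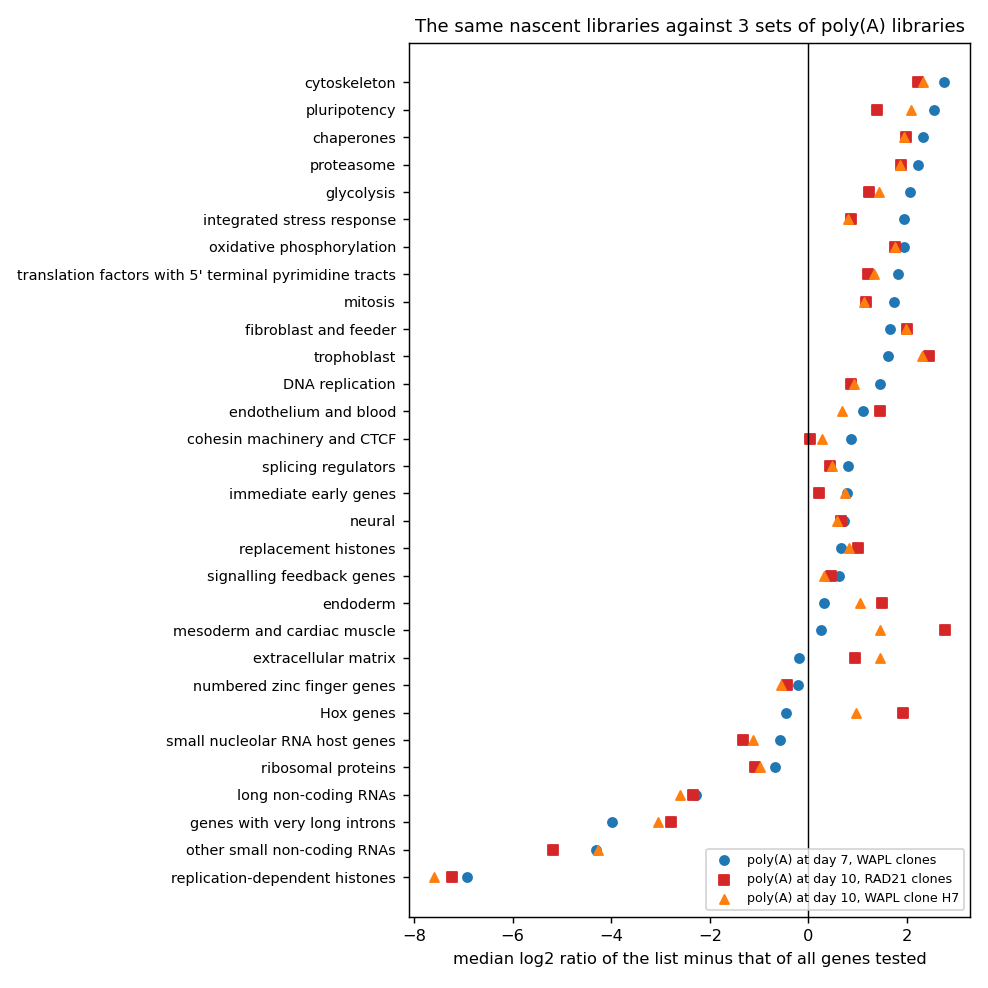
Median log2 ratio of each list minus that of all genes tested (x axis) when the same 2 nascent libraries are set against poly(A) RNA of day 7 (circles), of the RAD21 clones at day 10 (squares) or of WAPL clone H7 at day 10 (triangles). The members tested differ between the sets for some lists. Histones lie farthest to the left in all 3, and mesoderm, Hox and extracellular matrix medians lie farther to the right at day 10. The matrix list holds 58 genes at day 7, and 43 and 40 in the day 10 sets.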

How the data were processed

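The poly(A) counts per gene and the expected counts of the PRO-seq table (some are not whole) are as the authors deposited them. The submitters' processing notes name TopHat2, Bowtie2, HOMER and the mm9 build among others, without saying which made these tables. Expected counts were rounded to whole numbers. Tables were joined on row symbol; 2238 poly(A) rows, with 9.04% to 9.30% of poly(A) counts, found no partner. No column of these tables was left without a sample. Genes were filtered with filterByExpr (minimum count 10), normalised by TMM and tested with edgeR 4.0.16 (glmQLFit, glmQLFTest; poly(A) minus nascent, 3 residual degrees of freedom), after a check on simulated data. Alternatives used DESeq2, limma-voom, other scalings and filters, and left out each library. Members and gene lists were chosen with earlier results of these data known. Named genes were the 12 most extreme calls in each direction whose average log2 CPM reached 3, leaving out symbols patterned as small RNAs, pseudogenes, RIKEN clones or predicted genes (so H2afy3, annotated as a pseudogene, and Bc1 stayed in), up to 4 members per list by smallest p, and a fixed set; others were chosen after their values were seen (Hist1h2ao, Hist1h2ap, Acot9, Psme2, Prdx6, Dmd, Tenm3, Foxp1, Ppia, Rpl35, Rmrp, Zfp42, Atf3, T, Lum, Acta2, Ddit3, Ctage5), as were the pairs of copies and source genes. Floors and intervals cover counting error only.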

Additional observations from a re-analysis of the deposited data

How the results depend on the processing

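Genes higher in poly(A) RNA numbered 3640 to 4049 and genes lower 4614 to 5190 when each library was left out in turn, and 2238 were higher with library totals. In a new fit of only the 11421 genes with a mean of at least 50 counts in each assay, 2535 were higher and 2729 lower. Across genes, Pearson's r of nascent and poly(A) levels was 0.77 and Spearman's rho 0.80; with at least 50 counts in every library they were 0.611 and 0.607, with a prior count of 5 r was 0.797, and without each library r was 0.760 to 0.775 and rho 0.794 to 0.805. Of 2664 alternative values for named genes, 2606 kept direction and call, 54 lost the call and 4 changed sign; all 4 were Malat1, at 0.036 with no filter, -0.082 to 0.10 when each library was left out (0.0040 without clone H2, 0.10 without clone G9) and 0.12 without clones H2 and G9. For these shifts, and those of the lists, the cause was not tested beyond the smaller sets of genes or libraries that each alternative uses.

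List medians are given relative to all genes tested, and as moved where they shifted by more than the SD over library pairs. Leaving out each library gave oxidative phosphorylation 1.87 to 2.14, chaperones 2.32 to 2.50, extracellular matrix -0.15 to -0.066, immediate early genes 0.54 to 1.15, signalling feedback genes 0.39 to 0.96, splicing regulators 0.81 to 0.91, small nucleolar RNA hosts -0.61 to -0.54, other small non-coding RNAs -4.93 to -3.71, mesoderm and cardiac muscle -0.16 to 0.80, endoderm 0.18 to 0.72, fibroblast and feeder 1.61 to 2.16, endothelium and blood 0.59 to 1.86, very long introns -4.37 to -3.47, Hox genes -0.72 to -0.24. With no filter they were ribosomal proteins -0.39, translation factors 2.09, oxidative phosphorylation 2.13, proteasome 2.50, cytoskeleton 3.02, chaperones 2.59, extracellular matrix 0.24, signalling feedback genes 0.89, zinc finger genes 0.059, splicing regulators 1.08, small nucleolar RNA hosts -0.31, long non-coding RNAs -2.01, other small non-coding RNAs -3.86, mesoderm and cardiac muscle 0.53, endoderm 0.94, fibroblast and feeder 2.00, cohesin machinery and CTCF 1.15, mitosis 2.00, DNA replication 1.73, very long introns -3.71, Hox genes 0.049. With a mean of at least 50 counts in each assay they were replication-dependent histones -4.28, replacement histones 0.18, ribosomal proteins -1.12, translation factors 1.35, oxidative phosphorylation 1.62, proteasome 1.75, glycolysis 1.60, cytoskeleton 2.28, chaperones 1.85, extracellular matrix 0.97, immediate early genes 0.32, signalling feedback genes 0.17, zinc finger genes -0.54, splicing regulators 0.33, small nucleolar RNA hosts -1.06, long non-coding RNAs -0.91, pluripotency 1.97, endoderm 0.94, fibroblast and feeder 0.86, endothelium and blood 0.12, cohesin machinery and CTCF 0.40, mitosis 1.26, DNA replication 0.99, very long introns -2.71, integrated stress response 1.16. Against poly(A) RNA of the RAD21 clones at day 10, with no clone term, they were replication-dependent histones -7.23, replacement histones 1.01, ribosomal proteins -1.09, translation factors 1.21, oxidative phosphorylation 1.76, proteasome 1.88, glycolysis 1.22, cytoskeleton 2.23, chaperones 1.97, extracellular matrix 0.95, immediate early genes 0.21, zinc finger genes -0.43, splicing regulators 0.43, small nucleolar RNA hosts -1.33, other small non-coding RNAs -5.17, pluripotency 1.39, mesoderm and cardiac muscle 2.77, endoderm 1.50, fibroblast and feeder 1.99, trophoblast 2.44, cohesin machinery and CTCF 0.040, mitosis 1.16, DNA replication 0.87, very long introns -2.78, Hox genes 1.92, integrated stress response 0.87. With clone as a block they were replication-dependent histones -7.24, replacement histones 1.00, ribosomal proteins -1.12, translation factors 1.20, oxidative phosphorylation 1.76, proteasome 1.88, glycolysis 1.22, cytoskeleton 2.25, chaperones 1.96, extracellular matrix 0.95, immediate early genes 0.27, zinc finger genes -0.43, splicing regulators 0.42, small nucleolar RNA hosts -1.34, other small non-coding RNAs -5.19, pluripotency 1.61, mesoderm and cardiac muscle 2.81, endoderm 1.56, fibroblast and feeder 2.00, trophoblast 2.58, cohesin machinery and CTCF 0.027, mitosis 1.16, DNA replication 0.86, very long introns -2.79, Hox genes 1.98, integrated stress response 0.91. Against clone H7 at day 10 they were replication-dependent histones -7.59, ribosomal proteins -0.99, translation factors 1.32, oxidative phosphorylation 1.76, proteasome 1.86, glycolysis 1.43, cytoskeleton 2.33, chaperones 1.94, extracellular matrix 1.45, signalling feedback genes 0.31, zinc finger genes -0.55, splicing regulators 0.47, small nucleolar RNA hosts -1.13, long non-coding RNAs -2.61, pluripotency 2.07, mesoderm and cardiac muscle 1.46, endoderm 1.04, fibroblast and feeder 1.99, endothelium and blood 0.68, trophoblast 2.30, cohesin machinery and CTCF 0.27, mitosis 1.12, DNA replication 0.91, very long introns -3.05, Hox genes 0.96, integrated stress response 0.79. Without predicted, RIKEN, pseudogene and small RNA entries they were translation factors 1.69, oxidative phosphorylation 1.81, proteasome 2.10, extracellular matrix -0.32, zinc finger genes -0.33, splicing regulators 0.68, small nucleolar RNA hosts -0.71, mitosis 1.60. Other alternatives were chosen after seeing the data: without genes whose alias names another row the value was 1.70 for translation factors, and without clones H2 and G9 the values were oxidative phosphorylation 2.07, extracellular matrix -0.021, immediate early genes 1.09, signalling feedback genes 0.89, splicing regulators 0.89, small nucleolar RNA hosts -0.54, mesoderm and cardiac muscle 0.82, fibroblast and feeder 2.19, trophoblast 2.40, very long introns -3.50.

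No paired analysis was possible at day 7, because the nascent clones C4 and G9 gave no poly(A) library of that day. The per-kilobase alternative was not run, since lengths on the files' build were not used here. Depth limits the poly(A) side: 3 counts correspond to 0.108 CPM in the deepest poly(A) library and 0.480 CPM in clone H2, so ratios of genes near these levels are imprecise.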
